A study of Mus musculus with 12 samples.

Results

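The transcripts described here are those of the 4 mouse TCF/LEF transcription factors (Lef1, Tcf7, Tcf7l1 and Tcf7l2), of beta-catenin (Ctnnb1), and of 5 genes known as targets or feedback regulators of canonical Wnt signalling (Axin2, Nkd1, Nkd2, Tnfrsf19 and Apcdd1). These 10 genes were chosen by name and each was found once among the 24692 entries of an RNA sequencing table, whose unit, FPKM, is the number of fragments divided by transcript length and by all mapped fragments. All 10 were among the 12774 genes tested, which had at least 1 FPKM in at least 3 libraries. The study sorted 4 cell populations from the back skin of male Sox2:GFP/aSMA:dsRed mice at postnatal days 26 to 27, in early anagen, when follicles regrow. These are dermal papilla (DP), the signalling cell cluster at the base of the follicle, dermal sheath (DS), which wraps it, hair follicle dermal stem cells (DSC), and interfollicular dermis (IFD), the connective tissue between follicles, with 3 libraries each and 12 in all. Every mouse carried both reporters, a green one driven by Sox2 and a red one driven by the smooth muscle actin promoter, so no population is free of them. The antibodies used in the sorts are not named in the labels, and nothing in them ties a library to 1 animal or to a pool.

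In canonical Wnt signalling, stabilised beta-catenin enters the nucleus and binds TCF/LEF proteins on DNA, which turns target genes on. Without it, the same DNA-bound factors recruit Groucho/TLE corepressors and keep targets off. Lef1 and Tcf7 act mostly as activators with beta-catenin, Tcf7l1 mostly as a repressor, and Tcf7l2 as either. In skin, the pathway is known for starting hair follicles, for setting off anagen, and for keeping the inductive state of the dermal papilla.

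The libraries labelled DS and IFD held far less fibroblast RNA and more proliferation RNA than those labelled DP and DSC. The 10 fibroblast markers summed to 13555 to 24380.5 FPKM in DP, 977 to 1930.0 in DS, 9413 to 11965 in DSC and 828 to 1557 in IFD. Trp63, the basal keratinocyte factor, averaged 16.1 FPKM in DP, 121 in DS, 15.5 in DSC and 89.0 in IFD, and Krt5, a basal keratin, averaged 140.4, 395, 118 and 378 in the same order. The 6 proliferation genes summed to 11.1 to 25.0 FPKM in DP, 253 to 337 in DS, 15.8 to 50.4 in DSC and 181 to 226 in IFD. The 12 keratinocyte markers, differentiation keratins included, summed to 1288 to 3852, 1875 to 2102, 790.1 to 1525 and 2001 to 2302 FPKM, so 2 of the DP libraries had the highest sums, and all 12 reached 1 FPKM in every library. Of these 12 markers, 9 were higher and 1 lower in DS than in DSC, where 24.3% and 19.6% of all genes tested were. In DSC against IFD 9 were lower, where 19.7% of all genes were. But 1 was higher and 4 lower in DP than in DS (16.4% and 33.4% of all genes), and 1 higher and 5 lower in DP than in IFD (13.7% and 28.6%). The 4 lower in DP than in DS are near the share of all genes, and the 1 higher in either pair is under it. Melanocyte markers (6 genes) summed to 196 to 817 in DP, 10.2 to 19.4 in DS, 16.5 to 88.5 in DSC and 152 to 928 in IFD, with Pmel at 0 in every DS library. The 8 genes listed as markers of both dermal sheath and dermal stem cells had their highest sums in DSC, at 2249 to 2461 FPKM, against 153 to 446 in DS. Keratinocytes are known to use several of the genes described here, and the part of other cell types in the results below was not tested. DS and IFD therefore stand for labels only, and every comparison of DP or DSC with them also sets fibroblast-rich against fibroblast-poor libraries. In sorted bulk RNA, fewer cells of a type and less RNA per cell cannot be told apart. Relative depth, read from the spacing of low values, ranged from 0.633 in DP replicate 4 to 1.92 in IFD replicate 6, with DSC replicate 2 set to 1. These depths are approximate, and absolute depth is unknown.

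All 10 genes differed among the 4 populations by limma's moderated F test after Benjamini-Hochberg adjustment, where 56.8% of all tested genes did. Tnfrsf19 ranked 35 of 12774 genes in that test (adjusted p = 3.48e-07), and the member with the weakest evidence was Nkd2 (adjusted p = 0.0111). Between pairs of populations, 4 of the 10 passed in DP against DSC, where 8.69% of all genes did, 9 in DS against DSC (43.9% of all genes), and 7 in DP against DS (49.8%). Against IFD, 8 passed in DSC (37.6% of all genes), 1 in DS (2.26%) and 5 in DP (42.3%). Of the 6 pairs, Tnfrsf19 passed in 6, the genes Tcf7, Tcf7l1, Tcf7l2 and Ctnnb1 in 4 each, Lef1 and Apcdd1 in 3, and Axin2, Nkd1 and Nkd2 in 2, against a median of 2 over all genes tested. Differences below are in log2(FPKM + 1), which understates the change of low genes, and p-values are limma's, adjusted over all genes tested. Comparisons that share a population share its libraries and are not independent of each other.

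Lef1 (Entrez 16842; chromosome 3, 131110297 to 131224357, GRCm38.p6) encodes the factor most closely tied to hair follicle induction. It was read at 6.72, 17.9 and 33.6 FPKM in DP replicates 1, 2 and 4, at 12.1, 49.8 and 36.6 in DS replicates 1, 4 and 5, at 3.72, 3.85 and 5.21 in DSC replicates 1, 2 and 4, and at 105, 94.6 and 61.4 in IFD replicates 1, 2 and 6. Every IFD library was above every other library and every DSC library was below every other, while the DP and DS ranges overlapped. Lef1 was higher in DS than in DSC (difference 2.49, SE 0.53, adjusted p = 0.00254), and it was lower in DSC than in IFD (-4.04, adjusted p = 0.000109) and in DP than in IFD (-2.32, adjusted p = 0.00428). Neighbours in the order IFD, DS, DP, DSC did not differ past the threshold. For DP against DSC the mean was 19.4 ± 13.5 against 4.26 ± 0.826 FPKM (SD, n = 3 each) and the difference 1.72 (unadjusted 95% interval 0.56 to 2.87, adjusted p = 0.0659). That difference passed with median-of-ratios scaling, which divides each library by its median ratio to the gene-wise averages (adjusted p = 0.0451), with quantile normalization (0.0353), with replicate number entered as a block over the 12 libraries (adjusted p = 0.0165), and without DP replicate 1 (adjusted p = 0.0207) or DS replicate 1 (adjusted p = 0.0346).

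RefSeq lists 4 transcript starts for Lef1, and the FPKM values do not say which was used. The 250 bases before the first and the last of them are shown because TCF/LEF factors bind a known core, ATCAAAG, and the last start, inside the gene, lies after 2 copies of its shorter form TCAAAG. Both forms were searched on both strands, ATCAAAG containing TCAAAG, and matches are in capitals; sequences are RefSeq's on GRCm38.p6, 5′ to 3′ on the strand of the gene.
Lef1 first start, chr3:131110047-131110296, plus strand: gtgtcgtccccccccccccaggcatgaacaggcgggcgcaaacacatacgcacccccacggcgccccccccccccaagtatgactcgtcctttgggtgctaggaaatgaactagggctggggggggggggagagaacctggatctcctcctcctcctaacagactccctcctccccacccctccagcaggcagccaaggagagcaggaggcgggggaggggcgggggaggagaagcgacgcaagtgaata
Lef1 last start, chr3:131156044-131156293, plus strand: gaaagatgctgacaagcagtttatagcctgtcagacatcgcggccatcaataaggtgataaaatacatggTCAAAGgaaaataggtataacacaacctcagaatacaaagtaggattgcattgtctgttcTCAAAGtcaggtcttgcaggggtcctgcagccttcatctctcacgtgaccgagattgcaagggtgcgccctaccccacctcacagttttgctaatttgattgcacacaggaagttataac
The copies begin 180 and 120 bases before the last start. ATCAAAG occurred in 3.21% and TCAAAG in 13.8% of 32851 such windows of all genes. Of the 16 windows listed for 9 of the 10 genes, all but Apcdd1, 1 held ATCAAAG and 2 held TCAAAG. A match in letters is not evidence of binding, and a window without one says nothing about the factor.

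Tcf7 (Entrez 21414; chromosome 11, 52246527 to 52283383), which encodes TCF1, separated the libraries into a low and a high set. It was read at 4.39, 4.72 and 6.63 FPKM in DP replicates 1, 2 and 4, at 12.5, 16.7 and 28.1 in DS replicates 1, 4 and 5, at 3.15, 3.95 and 8.14 in DSC replicates 1, 2 and 4, and at 16.6, 13.4 and 11.6 in IFD replicates 1, 2 and 6. No DP or DSC library reached any DS or IFD library. Tcf7 was higher in DS than in DSC (1.73, adjusted p = 0.00146), lower in DP than in DS (-1.63, adjusted p = 0.00187), lower in DSC than in IFD (-1.36, adjusted p = 0.00768) and lower in DP than in IFD (-1.26, adjusted p = 0.0108). That last call ended with median-of-ratios scaling (adjusted p = 0.0566) and, as did the one for Lef1, without DP replicates 1 and 2, a choice made after seeing the data (0.159 for Tcf7 and 0.119 for Lef1). Without those libraries the Tcf7 call in DP against DS ended too (0.0548). Within the sets the differences were 0.11 for DP against DSC (interval -0.63 to 0.85) and 0.37 for DS against IFD (-0.37 to 1.11), and neither passed.

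Tcf7l1 and Tcf7l2, which encode TCF3 and TCF4, were highest in DSC. Tcf7l1 (Entrez 21415; chromosome 6, 72626371 to 72789045) stood at 8.17, 8.83 and 12.01 FPKM in DP replicates 1, 2 and 4, at 6.08, 11.8 and 13.4 in DS replicates 1, 4 and 5, at 21.5, 20.6 and 29.4 in DSC replicates 1, 2 and 4, and at 4.55, 4.9999 and 4.45 in IFD replicates 1, 2 and 6. All DSC libraries exceeded all others, all IFD libraries were below all others, and DP and DS overlapped. Tcf7l1 was lower in DP than in DSC (-1.22, SE 0.28, adjusted p = 0.0178) and in DS than in DSC (-1.17, adjusted p = 0.00474), and higher than in IFD in DSC (2.12, adjusted p = 0.000105) and in DP (0.90, adjusted p = 0.0204). The DP against DSC call ended with median-of-ratios scaling (adjusted p = 0.0513), with quantile normalization (0.0553), and without DP replicate 1 (0.0587), DSC replicate 1 (0.0525) or DSC replicate 4 (0.0717). The DP against IFD call ended without DP replicate 4 (adjusted p = 0.0652) or IFD replicate 1 (0.0526). DP and DS averaged 9.67 ± 2.05 and 10.4 ± 3.84 FPKM (SD, n = 3 each), a difference of -0.049 (interval -0.65 to 0.55) that was 0.38 with median-of-ratios scaling.

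Tcf7l2 (Entrez 21416; chromosome 19, 55741797 to 55933659) stood at 8.10, 11.1 and 12.8 FPKM in DP replicates 1, 2 and 4, at 11.2, 22.5 and 35.1 in DS replicates 1, 4 and 5, at 43.4, 41.8 and 61.7 in DSC replicates 1, 2 and 4, and at 6.70, 11.5 and 8.18 in IFD replicates 1, 2 and 6. The DSC libraries again stood above the 9 others, and DS replicate 1 lay inside the DP and IFD ranges. Tcf7l2 was lower in DP than in DSC (-2.09, SE 0.35, adjusted p = 0.00372), lower in DS than in DSC (-1.18, adjusted p = 0.0171) and higher in DSC than in IFD (2.36, adjusted p = 0.000295). The DS against DSC call ended without DS replicate 1 (-0.76, adjusted p = 0.0707) or DSC replicate 4 (0.0639). A lower level in DP than in DS (-0.92, adjusted p = 0.0462) did not pass with median-of-ratios scaling (-0.47, adjusted p = 0.296), with quantile normalization (-0.57, adjusted p = 0.21) or with no filter (0.0934). It also failed without DP replicate 1 (0.146), DP replicate 2 (0.0748), DS replicate 4 (0.11), DS replicate 5 (-0.55, adjusted p = 0.21), DSC replicate 1 (0.0561), DSC replicate 2 (0.0567), IFD replicate 1 (0.0513) or IFD replicate 6 (0.0548). DP against IFD differed by 0.26 (interval -0.50 to 1.03), which did not pass.

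**Figure D1:**
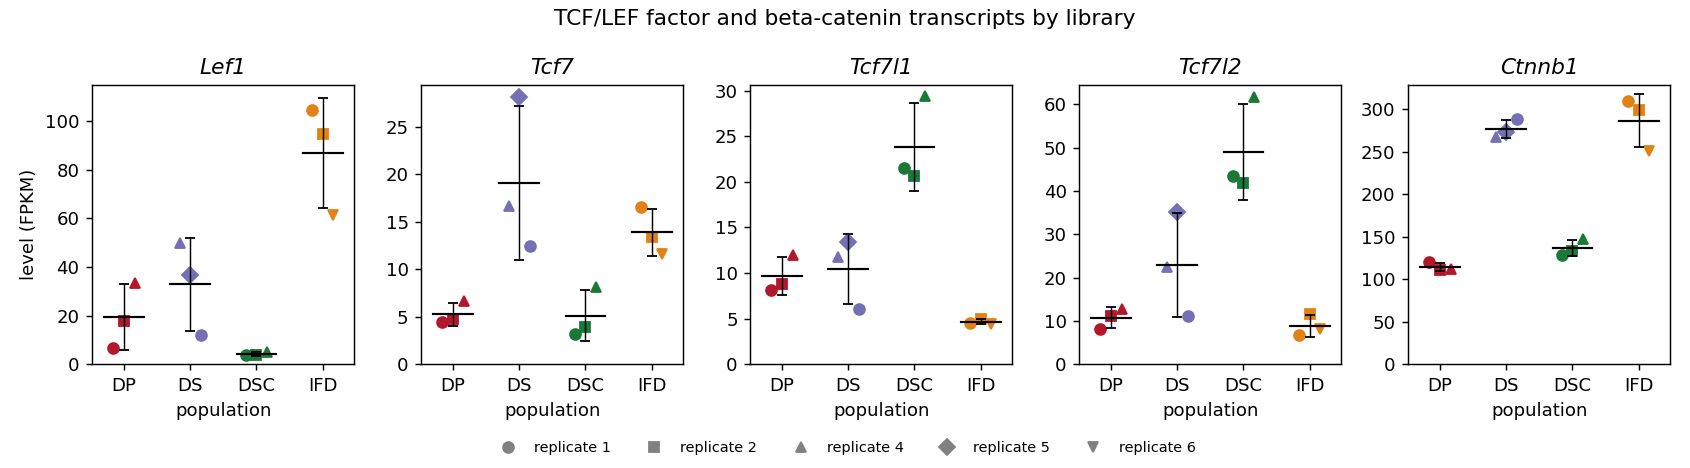
FPKM of the 4 TCF/LEF genes and Ctnnb1 in each library (points, shaped by replicate number) of dermal papilla (DP), dermal sheath (DS), dermal stem cells (DSC) and interfollicular dermis (IFD), with the mean (line) and SD (bar) of 3 libraries; each panel has its own linear scale from 0. Lef1 reaches 61.4 to 105 FPKM in IFD and stays at or under 5.21 in DSC, while Tcf7l2 is at 41.8 to 61.7 in DSC.

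Because FPKM is per length, the 4 factors can be set side by side within a library. In DSC, Tcf7l2 held 59.1% to 60.5% and Lef1 4.99% to 5.48% of the summed TCF/LEF FPKM. In IFD, Lef1 held 71.7% to 79.0% and Tcf7l2 5.05% to 9.55%, so the leading factor differed between these populations in every library. DP and DS lay between them: Lef1 held 24.5%, 42.0% and 51.6% in DP replicates 1, 2 and 4, and 29.0%, 49.4% and 32.3% in DS replicates 1, 4 and 5. DP replicate 1 was the one DP library in which Tcf7l1 (29.8%) and Tcf7l2 (29.6%) each held more than Lef1. The Tcf7 share was largest in DS, at 16.5% to 29.8%, against 10.2% to 16.04% in DP, 4.39% to 7.79% in DSC and 10.8% to 13.6% in IFD. The 4 factors summed to 45.0 ± 19.0 FPKM in DP, 85.2 ± 38.1 in DS, 82.1 ± 19.3 in DSC and 114 ± 25.1 in IFD (SD, n = 3 each). These shares are given as a description, with no test.

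**Figure D2:**
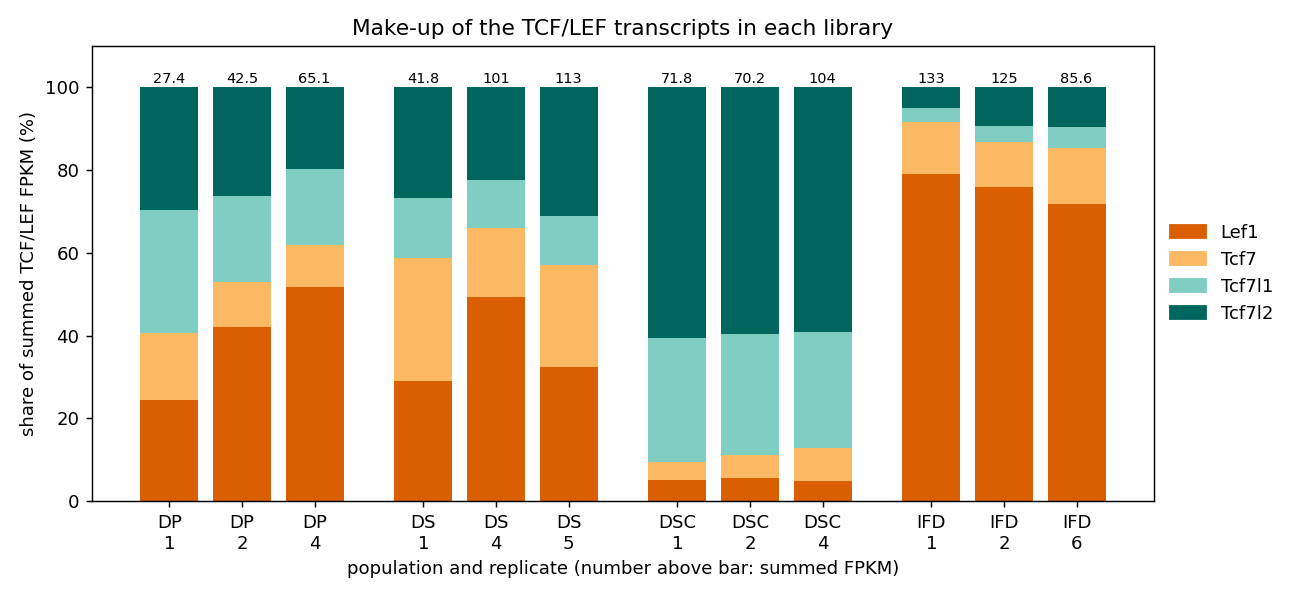
Share of the summed TCF/LEF FPKM (%) held by Lef1, Tcf7, Tcf7l1 and Tcf7l2 in each of the 12 libraries, grouped by population (DP, DS, DSC, IFD) with the replicate number under each bar and the summed FPKM above it. Tcf7l2 holds 59.1% to 60.5% in the DSC libraries and Lef1 71.7% to 79.0% in the IFD libraries.

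Ctnnb1 (Entrez 12387; chromosome 9, 120933400 to 120960507), which encodes the coactivator of these factors and also a part of cell adhesion junctions, was the most abundant of the 10 genes in every library. It was read at 119.6, 111 and 112 FPKM in DP replicates 1, 2 and 4, at 288, 268 and 272 in DS replicates 1, 4 and 5, at 129, 133 and 147 in DSC replicates 1, 2 and 4, and at 309, 299 and 250.4 in IFD replicates 1, 2 and 6. The DS and IFD libraries overlapped and all stood above all DP and DSC libraries. It was higher in DS than in DSC (1.01, SE 0.19, adjusted p = 0.00107), and lower in DP than in DS (-1.27, adjusted p = 0.000196), in DSC than in IFD (-1.06, adjusted p = 0.00102) and in DP than in IFD (-1.32, adjusted p = 0.000227). Its size moved with scaling: DP against DS was -0.80 with median-of-ratios scaling, and with quantile normalization DS against DSC was 1.71 and DSC against IFD -1.64, all 3 past the threshold. For DP against DSC (-0.26, interval -0.67 to 0.16) and for DS against IFD (-0.047, -0.46 to 0.36, and 0.073 with quantile normalization) the difference did not pass. The high libraries are those with 75.8 FPKM or more of Trp63, and the low ones had 24.8 or less. Trp63 is 1 of 12 keratinocyte markers, and their sum did not follow that split. It was 3445 and 3852 FPKM in DP replicates 1 and 2, against 1875 to 2102 in DS and 2001 to 2302 in IFD. That sum includes Krt10, a differentiation keratin, which averaged 1528 FPKM in DP, 53.4 in DS, 361 in DSC and 167 in IFD. The part of epithelial cells in the Ctnnb1 split was not tested.

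Axin2 (Entrez 12006; chromosome 11, 108917828 to 108950783), a scaffold of the complex that destroys beta-catenin and a widely used readout of the pathway, was lowest in DSC. It was read at 3.69, 5.58 and 17.4 FPKM in DP replicates 1, 2 and 4, at 5.85, 9.49 and 7.47 in DS replicates 1, 4 and 5, at 2.198, 2.80 and 1.59 in DSC replicates 1, 2 and 4, and at 14.0, 12.2 and 15.2 in IFD replicates 1, 2 and 6. Every DSC library was below every other library, and DP replicate 4 was above all 11 others, while the other DP libraries were below all IFD libraries. Axin2 was higher in DS than in DSC (1.43, SE 0.41, adjusted p = 0.0135) and lower in DSC than in IFD (-2.22, adjusted p = 0.00121). The DS against DSC call ended without DS replicate 4 (adjusted p = 0.0518). DP averaged 8.90 ± 7.45 and DSC 2.19 ± 0.605 FPKM (SD, n = 3 each), a difference of 1.39 (interval 0.51 to 2.28, adjusted p = 0.0536) that passed with median-of-ratios scaling (adjusted p = 0.0365), with quantile normalization (0.0226) and without DP replicate 1 (0.0211). Without DP replicate 4 it was 0.82 (adjusted p = 0.0855). DP against DS was -0.032 (interval -0.92 to 0.85), or 0.38 with median-of-ratios scaling, and DP against IFD was -0.83 (-1.72 to 0.055). Without DP replicate 4, Axin2 was lower in DP than in IFD (-1.41, adjusted p = 0.00254).

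Tnfrsf19 (Entrez 29820; chromosome 14, 60963834 to 61046855), which encodes the receptor TROY and is known as a Wnt target in intestinal stem cells, gave the clearest separation. It was read at 5.14, 7.46 and 4.85 FPKM in DP replicates 1, 2 and 4, at 14.7, 18.9 and 14.6 in DS replicates 1, 4 and 5, at 1.25, 1.91 and 1.18 in DSC replicates 1, 2 and 4, and at 48.0, 48.9 and 40.3 in IFD replicates 1, 2 and 6. No population overlapped another, in the order IFD, DS, DP, DSC. The difference was 2.81 for DS against DSC (adjusted p = 2.58e-06), -4.26 for DSC against IFD (adjusted p = 1.74e-07), -2.79 for DP against IFD (adjusted p = 4.43e-06), -1.34 for DP against DS (adjusted p = 0.00046) and 1.47 for DP against DSC (adjusted p = 0.00219). For DS against IFD it was -1.46 (adjusted p = 0.00592), the one call among the 10 genes in that pair.

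Axin2 and Tnfrsf19 are shown with their windows because their levels ran with Lef1 over the 12 libraries (Pearson's r of log2(FPKM + 1) 0.915 and 0.914). Those points fall into 4 populations and share their libraries, so r is a description. The one ATCAAAG among the 16 windows begins 202 bases before the second Tnfrsf19 start, which lies inside the gene. The one Axin2 start in the table lies inside the annotated gene as well. Capitals mark the match.
Axin2, chr11:108920099-108920348, plus strand: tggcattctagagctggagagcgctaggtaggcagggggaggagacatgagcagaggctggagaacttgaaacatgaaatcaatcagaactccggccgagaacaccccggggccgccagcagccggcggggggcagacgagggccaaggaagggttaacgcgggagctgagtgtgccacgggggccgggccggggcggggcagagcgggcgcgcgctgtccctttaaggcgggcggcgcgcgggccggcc
Tnfrsf19 first start, chr14:61046856-61047105, minus strand: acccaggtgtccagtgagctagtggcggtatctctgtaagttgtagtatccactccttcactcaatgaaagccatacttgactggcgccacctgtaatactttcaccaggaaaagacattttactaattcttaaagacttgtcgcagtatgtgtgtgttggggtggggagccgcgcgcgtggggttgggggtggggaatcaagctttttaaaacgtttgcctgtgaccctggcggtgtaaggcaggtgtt
Tnfrsf19 second start, chr14:61037988-61038237, minus strand: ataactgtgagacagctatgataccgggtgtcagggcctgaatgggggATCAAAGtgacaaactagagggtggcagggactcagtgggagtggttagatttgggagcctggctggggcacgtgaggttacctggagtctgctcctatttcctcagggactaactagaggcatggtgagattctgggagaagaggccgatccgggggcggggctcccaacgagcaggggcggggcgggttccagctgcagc
The windows before the Axin2 start and the first Tnfrsf19 start hold neither form on either strand.

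Apcdd1 (Entrez 494504; chromosome 18, 62922327 to 62953815) encodes a membrane protein that inhibits Wnt signalling and is mutated in a hereditary hair loss of humans. Its levels were 34.2, 29.1 and 73.9 FPKM in DP replicates 1, 2 and 4, 15.7, 20.2 and 17.3 in DS replicates 1, 4 and 5, 14.4, 12.2 and 17.5 in DSC replicates 1, 2 and 4, and 30.6, 22.5 and 40.4 in IFD replicates 1, 2 and 6. DP and IFD overlapped above DS and DSC, which also overlapped. Apcdd1 was higher in DP than in DSC (1.47, SE 0.32, adjusted p = 0.0152) and than in DS (1.21, adjusted p = 0.00807), and lower in DSC than in IFD (-1.01, adjusted p = 0.0265). The call of DP against DSC ended without DSC replicate 1 (adjusted p = 0.0547) or DSC replicate 2 (0.0621). The DSC against IFD call ended with median-of-ratios scaling (adjusted p = 0.0706), with no filter (0.0557) and without DSC replicate 1 (0.0693), DSC replicate 2 (0.0873), IFD replicate 1 (0.0662) or IFD replicate 6 (0.0901). DS against DSC differed by 0.26 (interval -0.44 to 0.96) and did not pass.

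Nkd1 and Nkd2 encode the naked cuticle proteins, which bind dishevelled and dampen the signal, and unlike the 3 other targets they were lowest in DS. Nkd1 (Entrez 93960; chromosome 8, 88521342 to 88594887) stood at 3.97, 8.11 and 7.13 FPKM in DP replicates 1, 2 and 4, at 1.34, 1.75 and 1.35 in DS replicates 1, 4 and 5, at 5.59, 5.67 and 8.71 in DSC replicates 1, 2 and 4, and at 4.79, 3.44 and 3.08 in IFD replicates 1, 2 and 6. All DS libraries were below all others and the DP range overlapped those of DSC and IFD. Nkd1 was lower in DS than in DSC (-1.61, SE 0.29, adjusted p = 0.00083) and higher in DP than in DS (1.53, adjusted p = 0.000949). DP and DSC averaged 6.40 ± 2.17 and 6.66 ± 1.78 FPKM (SD, n = 3 each), a difference of -0.071 (interval -0.70 to 0.56) that was 0.13 with median-of-ratios scaling. Against IFD, DP differed by 0.60 (interval -0.025 to 1.23, adjusted p = 0.112), which was 0.93 (adjusted p = 0.0236) with median-of-ratios scaling and 0.89 (0.0347) with quantile normalization, and which passed without DP replicate 1 (0.0336). DSC differed from IFD by 0.67 (adjusted p = 0.0851), or 0.80 (adjusted p = 0.0469) with median-of-ratios scaling.

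Nkd2 (Entrez 72293; chromosome 13, 73818534 to 73847631) stood at 9.29, 19.2 and 35.7 FPKM in DP replicates 1, 2 and 4, at 6.01, 3.68 and 0.909 in DS replicates 1, 4 and 5, at 9.64, 8.80 and 11.6 in DSC replicates 1, 2 and 4, and at 5.89, 6.58 and 12.6 in IFD replicates 1, 2 and 6. DP and DSC overlapped through DP replicate 1, and DS and IFD overlapped through DS replicate 1. Nkd2 was higher in DP than in DS (2.31, SE 0.50, adjusted p = 0.00235) and lower in DS than in DSC (-1.46, adjusted p = 0.0313). The DS against DSC call ended with no filter on low values (adjusted p = 0.0784) and without any one of the 3 DSC libraries, DS replicate 4 or DS replicate 5 (adjusted p from 0.0515 to 0.142, with a difference of -0.94 without DS replicate 5). That call also ended with replicate number as a block over the 12 libraries (-0.97, adjusted p = 0.118). The block gives DS replicate 5, the only library of its number, no weight, so it is not a separate check from leaving that library out. For DP against IFD, 21.4 ± 13.3 against 8.35 ± 3.68 FPKM (SD, n = 3 each), the difference of 1.14 (interval 0.055 to 2.23, adjusted p = 0.0841) passed with median-of-ratios scaling (adjusted p = 0.0318), with quantile normalization (0.035), and without DP replicate 1 (0.0264) or DS replicate 5 (0.047). Without DP replicate 4 it was 0.69 (adjusted p = 0.283).

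**Figure D3:**
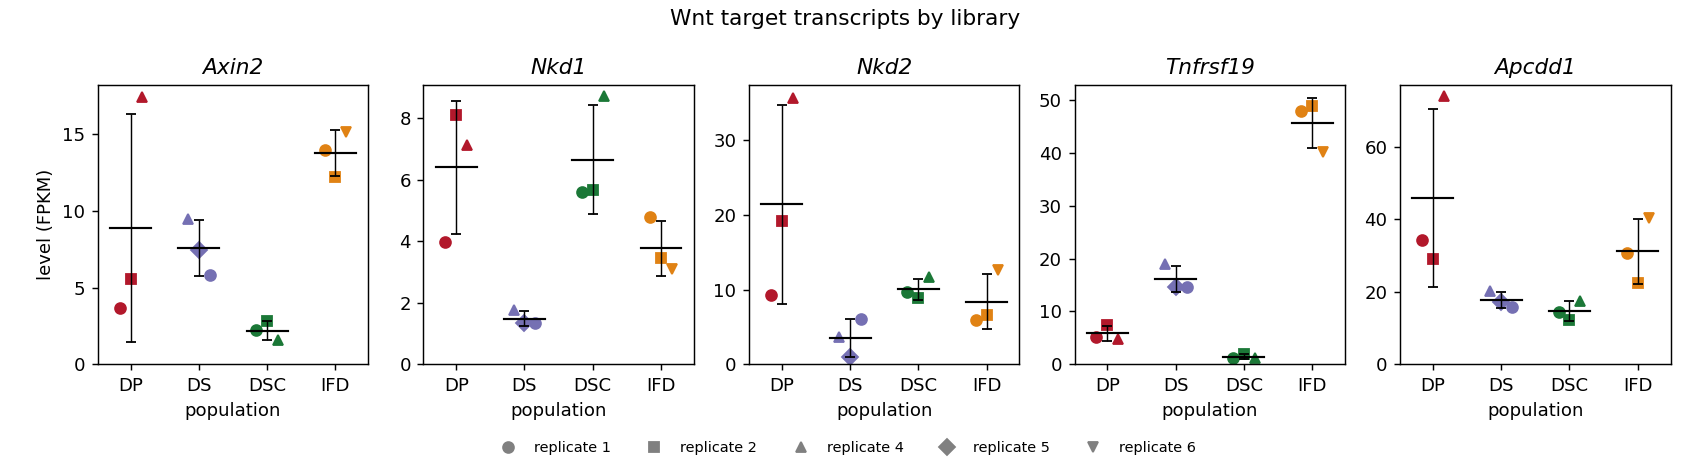
FPKM of the 5 Wnt target genes in each library (points, shaped by replicate number) of dermal papilla (DP), dermal sheath (DS), dermal stem cells (DSC) and interfollicular dermis (IFD), with the mean (line) and SD (bar) of 3 libraries; each panel has its own linear scale from 0. Axin2 and Tnfrsf19 are lowest in DSC and Nkd1 is lowest in DS; DP replicate 4 (triangle) is the highest DP library for Axin2, Nkd2 and Apcdd1.

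Dermal papilla against dermal stem cells is the comparison of the 2 populations rich in fibroblast transcripts. The DP libraries had more Tnfrsf19 and Apcdd1 and less Tcf7l1 and Tcf7l2 than the DSC libraries, so 2 of 10 genes rose, where 2.31% of all genes did, and 2 fell, where 6.38% did. With median-of-ratios scaling and with quantile normalization the split was 4 higher and 1 lower, Lef1 and Axin2 being gained and Tcf7l1 lost. The median difference of the 10 genes was 0.48 against -0.25 for all genes tested. Over all genes 295 were higher and 815 lower in DP, a split that median-of-ratios scaling turned into 458 and 517, moving the median of all genes by 0.18. With replicate number as a block within the 6 libraries of these populations, 658 genes passed, and the 4 calls among the members held. Without the block 512 genes passed in those 6 libraries, against 1110 in the fit of all 12. With the block in the 6 libraries Lef1 did not pass (adjusted p = 0.0658), and without it Apcdd1 did not pass either (0.0764). In 7 of the 10 genes the DP and DSC libraries did not overlap, where 30.0% of all genes showed that. Library DP replicate 4 had the highest DP level of 7 of the 10 genes, and DP replicate 1 had the lowest DP level of 7. Dermal papilla markers (8 genes) summed to 237, 464 and 1375 FPKM in DP replicates 1, 2 and 4, and to 216, 168 and 341 in DSC replicates 1, 2 and 4. DP replicate 1 thus lay inside the DSC range. Of these 8 genes, 2 were higher in DP than in DSC and none lower by limma. Sox2, 1 of the 8, ranged from 0.882 to 7.17 FPKM in DP and from 1.11 to 1.17 in DSC. The keratinocyte markers summed to 3445, 3852 and 1288 in DP replicates 1, 2 and 4. Of other cell types, 4 of 6 melanocyte, 2 of 5 Schwann cell and 3 of 12 keratinocyte markers were higher in DP than in DSC. Schwann cell markers summed to 26.3 to 108 FPKM in DP and 9.78 to 17.7 in DSC, and immune markers to 40.3 to 145 in DP and 20.7 to 604 in DSC. The part of these cells in the DP and DSC values was not tested. Without DP replicates 1 and 2, which leaves 1 DP library assumed to vary like the rest, 4 genes were higher (Lef1 2.73, Axin2 2.55, Tnfrsf19 1.27 and Apcdd1 2.27) and Tcf7l1 (adjusted p = 0.179) and Tcf7l2 (adjusted p = 0.054) did not pass.

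Dermal sheath against dermal stem cells gave 5 higher genes (Lef1, Tcf7, Ctnnb1, Axin2 and Tnfrsf19) and 4 lower ones (Tcf7l1, Tcf7l2, Nkd1 and Nkd2), against 24.3% of all genes higher and 19.6% lower. In 9 of the 10 genes the libraries did not overlap, where 58.7% of all genes showed that. The 10 genes had a median difference of 0.64 against 0.13 for all genes tested. Over all genes 3105 were higher and 2502 lower, or 2223 and 2858 with median-of-ratios scaling, which moved the median by -0.18. In DP against DS, Nkd1, Nkd2 and Apcdd1 rose and Tcf7, Tcf7l2, Ctnnb1 and Tnfrsf19 fell, against 16.4% of all genes higher and 33.4% lower. Their libraries did not overlap in 6 of the 10 genes (55.7% of all genes), and the median difference was -0.41 against -0.36 for all genes. There, 2094 genes were higher and 4271 lower in DP, or 2899 and 2563 with median-of-ratios scaling, which moved the median by 0.37. DS replicate 1 had the lowest DS level of 7 of the 10 genes, including all 4 TCF/LEF factors, which summed to 41.8 FPKM in it against 100.7 and 113 in DS replicates 4 and 5. Its relative depth was 1.52, against 0.709 and 0.87 in those libraries, and its keratinocyte markers summed to 2058 FPKM against 1875 and 2102. Its title, DSL1, also has another prefix than the other DS titles, which the labels do not explain. What part depth or the difference behind that title has in the gap was not tested.

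Against interfollicular dermis, the DSC libraries had more Tcf7l1 and Tcf7l2 and less Lef1, Tcf7, Ctnnb1, Axin2, Tnfrsf19 and Apcdd1, so 2 genes rose (17.9% of all genes did) and 6 fell (19.7%). Libraries did not overlap in 9 of the 10 genes (52.7% of all genes), and the median difference was -1.04 against -0.14 for all genes tested, which median-of-ratios scaling moved by 0.13. DS had less Tnfrsf19, 1 gene lower where 1.32% of all genes were, and none higher by limma, where 0.939% were. In that pair 7 of the 10 genes had an unadjusted p under 0.05, as 1976 of the 12774 genes tested did, libraries did not overlap in 6 of the 10 (21.6% of all genes), and the median difference was -0.77 against 0.05. Without DS replicate 1 the DS comparison with IFD also passed for Tcf7l1 (adjusted p = 0.0346) and Tcf7l2 (adjusted p = 0.0298), giving 3 genes. DP had more Tcf7l1 and less Lef1, Tcf7, Ctnnb1 and Tnfrsf19, so 1 gene rose (13.7% of all genes did) and 4 fell (28.6%), or 3 and 3 with median-of-ratios scaling and 3 and 4 with quantile normalization. Libraries did not overlap in 5 of the 10 genes (48.5% of all genes), the median was -0.28 against -0.32, and over all genes 1746 were higher and 3654 lower, or 2486 and 2156 with median-of-ratios scaling, which moved the median by 0.30.

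**Figure D4:**
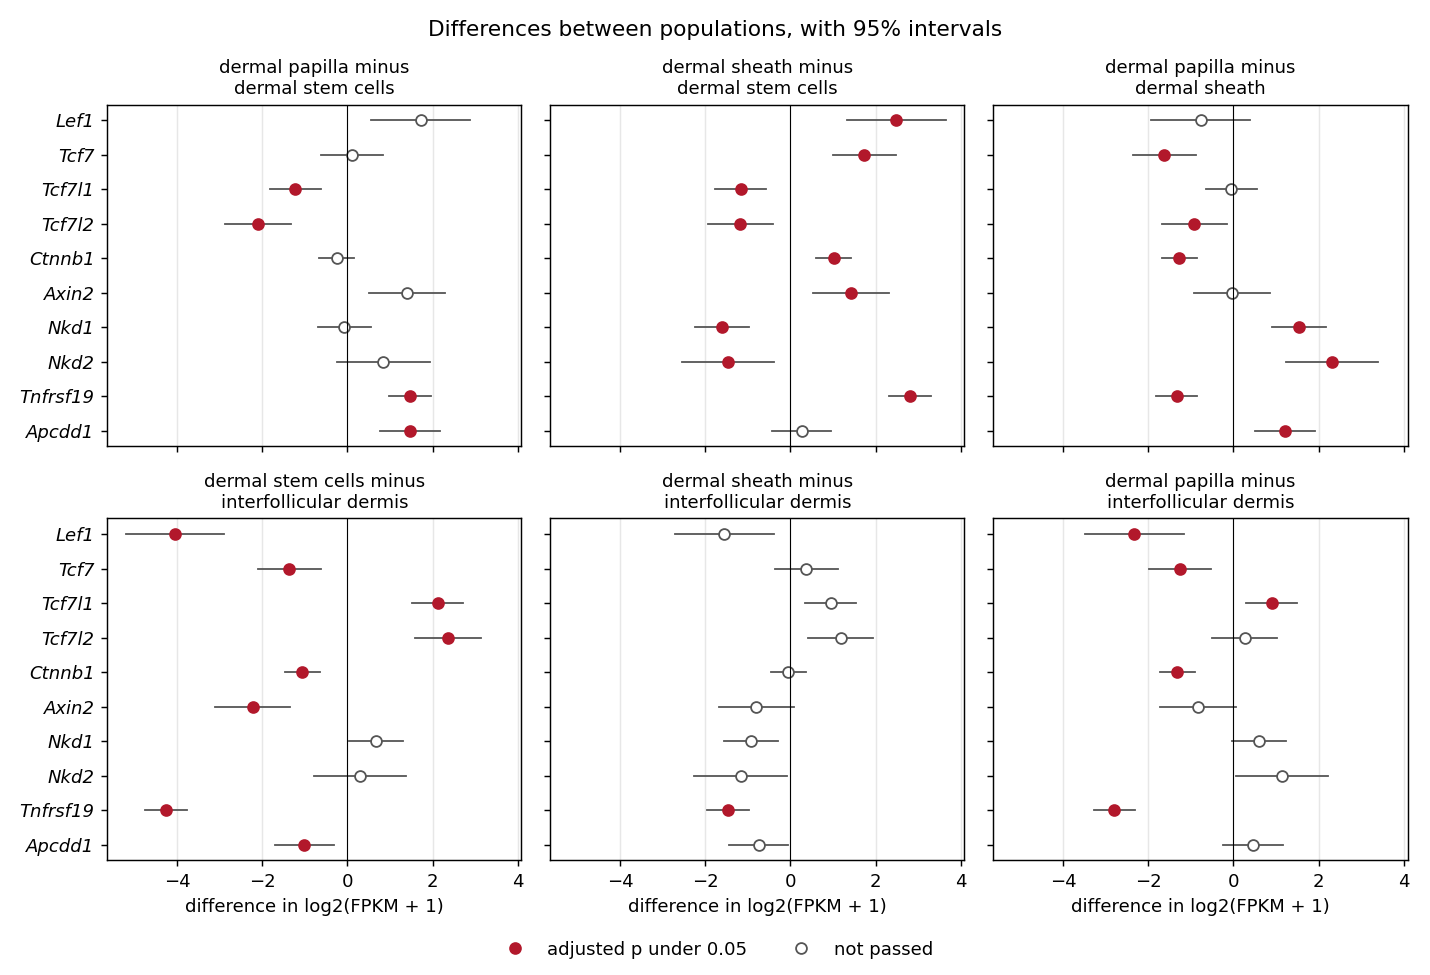
Difference in log2(FPKM + 1) between populations for each of the 10 genes in the 6 pairs, first-named minus second-named population, with unadjusted 95% intervals; filled points passed at an adjusted p under 0.05. Tcf7l1 and Tcf7l2 lie left of 0 in both comparisons with dermal stem cells as the second population, and Tnfrsf19 passed in all 6 panels.

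The other genes of the pathway were taken from 4 lists, whose counts are to be read against the shares of all genes tested. Those were 24.3% higher and 19.6% lower in DS than in DSC, 16.4% and 33.4% in DP against DS, 17.9% and 19.7% in DSC against IFD, 13.7% and 28.6% in DP against IFD, and 2.31% and 6.38% in DP against DSC. Of 18 tested genes known as Wnt targets in other settings, 10 were higher and 4 lower in DS than in DSC, 2 were higher and 9 lower in DSC than in IFD, and 1 was higher and 1 lower in DP than in DSC. The 4 of 18 lower in DS than in DSC are near the share of all genes. The 2 higher in DSC than in IFD and the 1 lower in DP than in DSC are under the shares in those pairs. The 18 genes had median differences of 1.11, -1.21 and 0.13 in these pairs, against 0.13, -0.14 and -0.25 over all genes tested. Msx1, a homeobox transcription factor gene, averaged 2.92 ± 0.648 FPKM in DP and 45.6 ± 25.4 in IFD (difference -3.45, adjusted p = 0.000145). Twist1, a mesenchymal transcription factor gene, averaged 72.7 ± 36.7 in DP and 4.45 ± 2.45 in DS (3.75, adjusted p = 1.04e-05), and Wif1, a secreted Wnt inhibitor gene, 365 ± 304 and 34.5 ± 21.4 (3.30, adjusted p = 0.00136). In DP against DS 6 of the 18 were higher and 9 lower, so the list did not move one way there. In DP against IFD 8 were lower and 2 higher, the 2 being near the share of all genes.

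Of 13 tested genes of the destruction complex and its dishevelled partners, 4 were higher in DS than in DSC, 9 were lower in DP than in DS, and 1, Dvl3, was lower in DP than in DSC (-1.09, adjusted p = 0.0255). The 4 and the 1 of 13 are near the shares of all genes in those pairs. In DP against IFD 6 were lower, and in DSC against IFD 1 was, which is under the share of all genes in that pair. Dvl3, a dishevelled gene that relays the signal from the receptor, averaged 3.24 ± 0.912 FPKM in DP and 11.6 ± 2.69 in DS (-1.57, adjusted p = 0.00051), and Dvl2 averaged 3.29 ± 1.25 and 11.2 ± 2.31 (-1.53, adjusted p = 0.000886). Csnk1e, a kinase gene of the pathway, averaged 19.7 ± 0.394 in DP and 48.4 ± 5.74 in IFD (-1.25, adjusted p = 0.000188). Among 12 beta-catenin coactivator genes 7 were higher in DS than in DSC, with a median difference of 0.69 against 0.13 for all genes, and 10 were lower in DP than in DS, with a median of -0.99995 against -0.36, led by the chromatin remodeller gene Smarca4 (12.7 ± 2.35 in DP and 49.5 ± 8.32 in DS, -1.88, adjusted p = 4.26e-05), Tbl1xr1 (-1.34) and Bcl9l (-1.20). In DP against DSC none of the 12 coactivator genes passed by limma, and 2 had an unadjusted p under 0.05, as 3228 of the 12774 genes tested did.

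Corepressor and inhibitor genes had calls in both directions, not all of them beyond the shares of all genes. Of 13 tested, 5 were higher and 1 lower in DS than in DSC, 3 were higher and 7 lower in DP than in DS, 2 were higher and 6 lower in DSC than in IFD, 1 was higher and 8 lower in DP than in IFD, and 1 was higher in DP than in DSC. The 2 of 13 higher in DSC than in IFD and the 3 higher in DP than in DS are near the shares of all genes. The 1 lower in DS than in DSC and the 1 higher in DP than in IFD are under them. Tle2, a Groucho corepressor gene, averaged 14.2 ± 13.2 FPKM in DP and 2.27 ± 0.507 in IFD (1.87, adjusted p = 0.0076), while the corepressor gene Ctbp2 averaged 8.74 ± 2.98 in DP and 28.3 ± 4.92 in DS (-1.63, adjusted p = 0.000274) and the deacetylase gene Hdac2 36.5 ± 8.29 in DP and 104 ± 27.0 in IFD (-1.48, adjusted p = 0.000661). Tle1 was the gene that rose in DP against DSC (1.29, adjusted p = 0.0406), at 7.97 ± 3.34 against 2.52 ± 0.574 FPKM (SD, n = 3 each). It was named after its value was seen, as Dvl3 was for that pair.

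Among the tested genes whose log2(FPKM + 1) ran closest to Lef1 over the 12 libraries were Mta3 (Pearson's r 0.96), Bambi (0.942), Luc7l3 (0.937) and Mbd2 (0.933). Bambi, a pseudoreceptor gene that dampens BMP and TGF-beta signals and a member of the Wnt target list, averaged 8.30 ± 4.44 FPKM in DP, 10.5 ± 3.37 in DS, 3.37 ± 0.288 in DSC and 15.5 ± 4.003 in IFD (SD, n = 3 each), the same order of populations as Lef1. Closest to Axin2 were Sdr42e1 (0.971), Pafah2 (0.949), Rgs9 (0.936), Lef1 (0.915) and Scd1 (0.911). Lef1 was thus the fourth closest of all tested genes to Axin2, the levels of both being highest in IFD and lowest in DSC by their means. Among the 10 genes, Tcf7l1 and Tcf7l2 ran together (0.926), and Tcf7l1 ran against Tnfrsf19 (-0.885). The points are 3 libraries in each of 4 populations and share depth and cell makeup, so these values describe the libraries and carry no test.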

How the data were processed

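The authors deposited 1 table of FPKM values with a column per library, made with TopHat2 2.0.13, SAMtools and Cufflinks 2.2.1 on mm10, per the submitters' processing notes, which give no roles or parameters; the annotation is not given in the sources used here. Cells were sorted from skin and libraries made by SOLiD protocols, per the labels' protocols. Reads were not used, so no counting interval is given. The title DSL1, whose prefix differs from the other DS titles and is not explained in the labels, was taken as DS replicate 1. Relative depth was read from genes under 0.3 FPKM in all libraries, as the commonest ratio of DSC replicate 2 to each library.

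The tested genes, those reaching 1 FPKM in 3 or more libraries, were compared by limma 3.58.1 (R 4.3.3) using log2(FPKM + 1) and 4 population means, with a mean-variance trend (8 residual degrees of freedom, prior 4.61), two-sided, with Benjamini-Hochberg adjustment over all 12774 genes per comparison and a threshold of 0.05. The fit was tested on simulated data. The labels do not say whether replicates are separate animals; p-values then reflect library spread only, which may be technical. Replicate numbers paired DP with DSC: deviations of same-numbered libraries correlated at 0.306, 0.241 and 0.389. The members, the lists and the rule for named genes (the 10 members, the 3 most changed genes of each pathway list, the 5 genes most like Lef1 and Axin2, and 8 marker genes) were chosen with earlier results of these data known; 1 gene that the rule names is not reported here. Of the 8 marker genes, Col1a1, Pdgfra, Dct and Acta2 enter only through their lists' sums, which do not show their own levels. Sox2 is given for DP and DSC only. The alternatives were another pseudocount, no filter, 2 scalings, a replicate block, and each library left out. Positions and promoter sequences are RefSeq's on GRCm38.p6, matched by Entrez identifier; the authors' annotation may differ. The list gene Tle5 was found as Aes and Adgre1 as Emr1.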

Additional observations from a re-analysis of the deposited data

How the results depend on the processing

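With a pseudocount of 0.1 all 60 differences of the 10 genes kept their direction and side of the threshold, and so did 57 with no filter on low values, 48 with median-of-ratios scaling, 50 with quantile normalization and 51 with the replicate block in all 12 libraries. Leaving out 1 library at a time left 671 of the refitted differences as they were; 12 changed direction, 27 lost and 10 gained a call. The cause of these changes was not tested. With fewer libraries the calls over all genes ranged from 465 to 1377 for DP against DSC and from 98 to 426 for DS against IFD, and those among the 10 genes from 2 (without DSC replicate 1) to 5 and from 1 to 3 (without DS replicate 1). In the 6 libraries of DP and DSC alone, 658 genes passed with the replicate block and 512 without it. Replicate number 5 occurs only in DS and number 6 only in IFD. The block in all 12 libraries thus gives DS replicate 5 and IFD replicate 6 no weight in any difference. Its effect on differences with DS or IFD cannot be told apart from leaving those libraries out. With it, 150 genes passed for DS against IFD in place of 289. Lef1 passed in that pair (-2.42, adjusted p = 0.0483), Tnfrsf19 did not (-1.32, adjusted p = 0.0737) and Tcf7 turned to -0.37. In DP against DS the block turned Tcf7l1 to 0.22 and Axin2 to 0.028, and Tcf7l2 was -0.56 (adjusted p = 0.091). In DS against DSC Nkd2 was -0.97 with it (adjusted p = 0.118). Outside DP and DSC the replicate numbers matched less evenly. Deviations of same-numbered DS and DSC libraries correlated at 0.294 (replicate 1) and 0.139 (replicate 4), and DS replicate 5 with DSC replicate 4 at 0.152. For replicate 1 of DS and IFD the value was -0.272. Whether these numbers mark a shared origin was not tested.

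No call turned round under scaling. The differences that did change sign had not passed: Nkd1 in DP against DSC (0.13 with median-of-ratios scaling, 0.18 with quantile normalization), Tcf7l1 (0.38 and 0.31) and Axin2 (0.38 and 0.30) in DP against DS, and Ctnnb1 in DS against IFD (0.073 with quantile normalization). Without DP replicates 1 and 2, chosen after seeing the data, Nkd1 in DP against DSC was 0.11, in DP against DS Lef1 was 0.24, Tcf7l1 0.25 and Axin2 1.12 (adjusted p = 0.023), and Axin2 in DP against IFD was 0.32. Leaving out 1 library changed the sign of differences that had not passed: Axin2 (-0.61 to 0.38) and Tcf7l1 (-0.36 to 0.15) in DP against DS, Ctnnb1 in DS against IFD (-0.14 to 0.012), and Nkd1 (-0.24 to 0.19) and Tcf7 (-0.12 to 0.44) in DP against DSC. Lef1 in DP against DS ran from -1.35 (without DS replicate 1, adjusted p = 0.0416) to -0.20, and Axin2 in DP against IFD from -1.41 to -0.42. Depth in reads is unknown, so no counting limit can be set for low values such as those of Axin2 in DSC.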
